A study of Mus musculus with 6 samples.

Results

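The genes described here are Sox13 and 7 other HMG-box genes, Sox4, Tcf7, Lef1, Hmgb1, Hmgb2, Hmgb3 and Ssrp1, together with Ctnnb1, which encodes beta-catenin. They were chosen by name, and every probe set that the array annotation assigns to one of them was taken whatever its value. This gave 18 of 25470 probe sets and 7 of 8511 annotated genes. Tcf7 and Ssrp1 had no probe set under their name in the annotation used, and they were not analysed here. RNA came from CD4+CD8+ double-positive thymocytes, the immature stage of the alpha-beta T cell lineage, which were sorted from the thymus of female C57BL/6 mice aged 6 weeks. The 2 groups were mice that carry a Sox13 transgene and their wild-type littermates, and the labels describe the wild-type cells as lacking expression of the endogenous gene. Each sort pooled at least 2 mice, and the promoter that drives the transgene is not given in the sources used here. Experiment 1 used a pair of Mu11K arrays, A and B, with no probe sets in common, and experiment 2 used the U74A version 2 array. Every array type was hybridised once per genotype.

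The HMG box is a DNA-binding domain that sits in the minor groove and bends the helix. In SOX and TCF/LEF proteins it recognises short sequence motifs, and in the HMGB proteins, abundant chromatin components, it binds DNA with little sequence preference. When Wnt signaling keeps beta-catenin from being degraded, beta-catenin enters the nucleus and turns TCF/LEF factors from repressors, bound to Groucho/TLE corepressors, into activators. TCF-1, encoded by Tcf7, and LEF-1 act in early thymocyte development, and SOX13 can bind TCF-1 and is known from gamma-delta T cells. The series text compares the genotypes to learn which genes an ectopic Sox13 changes in these alpha-beta lineage cells.

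Sox13 itself was the one member that passed the test over both experiments, and it rose in the transgenic cells in each. No other member passed, and their ratios were small beside that of Sox13. Sox4, a transcription factor of the SOXC group, was higher in the transgenic sample of both experiments, and Ctnnb1 was lower in both. Lef1, Hmgb2 and Hmgb3 had opposite signs in the 2 experiments, and Hmgb1 had a probe set of its own in experiment 1 alone.

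Levels are scanner intensities scaled so that the 2% trimmed mean of each array is 500, and anything under 100, the floor, was raised to 100 before log2 was taken. Where one genotype sits at the floor the ratio is a bound and carries the words "at least", and a gene value that averages such a ratio with others is given as computed. Of the 18 probe sets, 17 lay above the floor on both arrays of their array type, and 9 belonged to each experiment. Probe sets differ in their response to RNA, so levels are compared between genotypes within a probe set, never between probe sets. Between 46.9% and 57.4% of an array's probe sets lay above the floor. The spread of the log2 ratios differed between the array types, with an SD of 0.73 for Mu11K A, 0.83 for Mu11K B and 0.35 for U74A. The double-positive label was checked on its markers, and the sort antigens Cd4 and Cd8a were far above the floor in every sample. Cd4 stood at 7854 in transgenic and 7877 in wild-type cells in experiment 1 and at 5040 and 6496 in experiment 2. None of the double-positive markers annotated on an array lay below the floor in both genotypes. Of these markers, 5 of 13 were higher in experiment 1 and 6 of 14 in experiment 2, with median log2 ratios of -0.11 and -0.02, and 0 of 13 tested passed limma. Over all genes, 45.6% were higher in experiment 1 and 45.4% in experiment 2, and 0.154% of 3237 tested passed. These shares are the background for the list counts below. The largest were Rag2, a subunit of the V(D)J recombinase, 4.07-fold lower in experiment 1 at a log2 ratio of -2.02 and at 0.08 in experiment 2, and Ptcra, the pre-TCR alpha chain, at 1.61 and 0.58. Under median scaling the medians turned to 0.25 and 0.04.

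**Figure D1:**
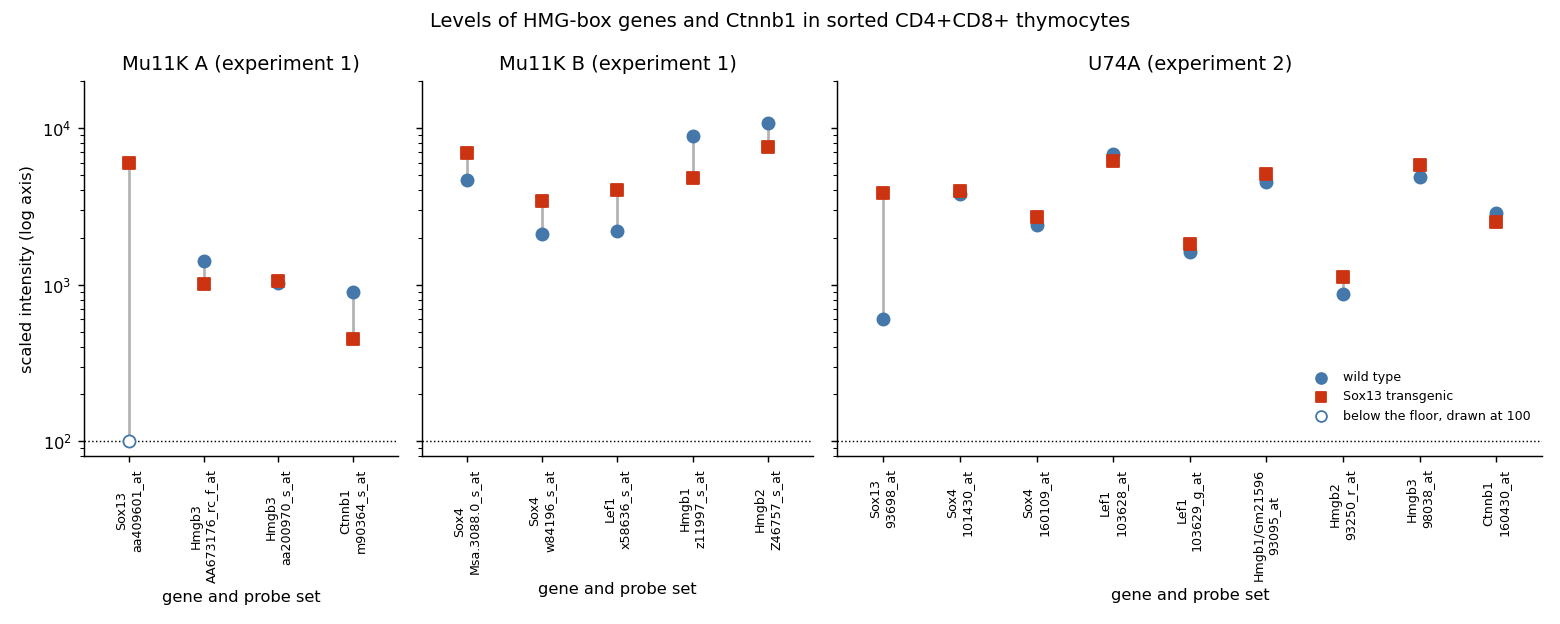
Scaled intensity of each of the 18 probe sets on a log axis, by array type, with wild type as blue circles and Sox13 transgenic as red squares, 1 array each; the dotted line is the floor of 100 and the open circle a value below it. The Sox13 pairs are far apart, at 5951 against a value below the floor and at 3832 against 599.6, while the other pairs differ by less than 2-fold.

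Each experiment had 1 probe set for Sox13. On Mu11K A, probe set aa409601_at read 5951 in transgenic cells and 27.4, below the floor, in wild-type cells, a difference of at least 59.5-fold. On U74A, its probe set read 3832 in transgenic cells and 599.6 in wild-type cells, a difference of 6.39-fold. The transgenic arrays were thus high in both experiments, and the wild-type reading lay below the floor in experiment 1 and above it in experiment 2. Whether the U74A reading in wild-type cells is Sox13 RNA or signal of other RNA on that probe set was not tested, and the deposited values do not separate transgene from endogenous transcript. Among the probe sets that passed the floor in either genotype, 99.97% had a lower log2 ratio on Mu11K A and 99.94% on U74A. Averaged over the experiments, the log2 ratio of Sox13 was 4.29 ± 0.56 (limma SE, n = 2 experiments, 95% interval 3.08 to 5.49), with a limma adjusted p of 0.00543. The experiment 1 ratio in that mean is the bound of 5.90, so the mean, its SE and its interval all depend on the floor. The upper end of the interval is therefore no upper limit. In experiment 1 Sox13 passed the filter through the transgenic array alone, and it was not tested where both arrays had to pass. The groups were set by a Sox13 transgene, so this call is no independent result. With a floor of 50 the mean was 4.79 with a limma adjusted p of 0.152, and when genes were represented by their brightest probe set the limma adjusted p was 0.0722. Across the 3237 genes measured in both experiments, 5 passed in this direction, 0.154% of those tested, and 0 passed as lower. At an unadjusted limma p under 0.05 there were 81 higher genes, 2.5%, and 127 lower, 3.92%. Sox13 was also among the 14 genes, 0.432%, that were 2-fold or more higher in both experiments, and no member was among the 2, 0.0618%, that were 2-fold or more lower in both. The p-values rest on the spread between 2 pairs of pooled samples and on a variance shared over genes, and they do not measure the spread between single mice.

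**Figure D2:**
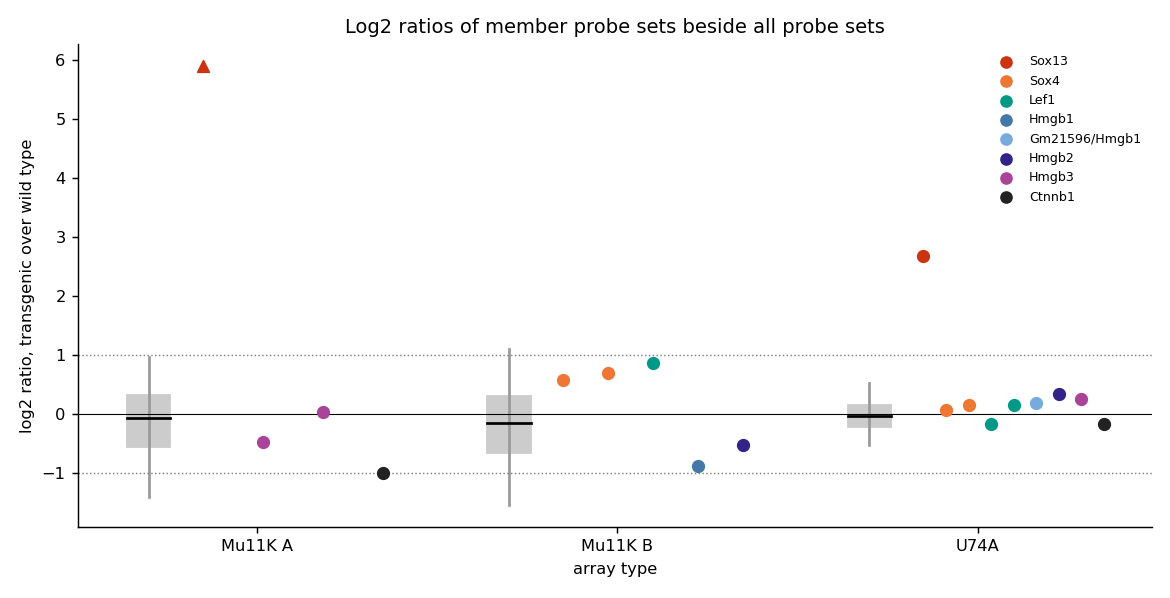
Log2 ratio of transgenic over wild type for each probe set of the HMG-box genes and Ctnnb1, as coloured points by array type, beside all probe sets that passed the floor in either genotype (grey box from the 25th to the 75th percentile, black median line, whiskers from the 5th to the 95th percentile); dotted lines mark 2-fold and the triangle is a lower bound. Sox13 lies at 5.90 and 2.68, and every other point lies between the dotted lines.

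Counted by probe set, 2 of the 18 were 2-fold or more higher in transgenic cells, against 3.2% of all 14568 probe sets that passed the floor in either genotype. Both were Sox13. By array type this was 1 of 4 on Mu11K A, where 4.56% of probe sets were, 0 of 5 on Mu11K B, where 6.15% were, and 1 of 9 on U74A, where 0.971% were. None of the 18 was 2-fold or more lower, against 6.82% of all probe sets, or 11.7% on Mu11K A, 13.9% on Mu11K B and 0.563% on U74A. Counted by gene, 2 of the 6 members measured in both experiments were higher in both, where 23.9% of all genes were, and 1 was lower in both, where 30.4% of all genes were. The other 3 had opposite signs, against 45.7% of all genes. These shares lie near the background, and nothing about the members other than Sox13 is read from them.

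Sox4 was read by 2 probe sets in each experiment, and in all 4 the transgenic level was the higher one. On Mu11K B, the first of them read 6927 in transgenic and 4641 in wild-type cells, 1.49-fold higher. The second Mu11K B probe set, w84196_s_at, read 3433 and 2118, 1.62-fold higher. On U74A the differences were smaller, at 3990 against 3820 for one probe set and 2711 against 2423 for the other, 1.04-fold and 1.12-fold. The 4 probe sets lay above 85.5%, 88.7%, 62.9% and 75.3% of the probe sets of their array by log2 ratio, so none stood at the edge of its array's spread. Averaged over the experiments, the log2 ratio of Sox4 was 0.37 ± 0.35 (limma SE, n = 2 experiments), with an interval from -0.37 to 1.12 and a limma adjusted p of 0.884. That interval runs from a fold of 0.773 to 2.17 and does not exclude a change of either sign.

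Lef1, the TCF/LEF factor among the members that could be measured, was higher in the transgenic sample of experiment 1 and close to level in experiment 2. On Mu11K B, probe set x58636_s_at read 4008 in transgenic and 2196 in wild-type cells, 1.82-fold higher. On U74A, one probe set read 6147 against 6887, 1.12-fold lower, while the other read 1807 against 1624, 1.11-fold higher. The U74A probe sets of this gene therefore differed in sign, each by less than the array's SD of log2 ratios. Averaged over the experiments, the log2 ratio of Lef1 was 0.43 ± 0.36 (limma SE, n = 2 experiments, interval -0.34 to 1.21), with a limma adjusted p of 0.879.

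Ctnnb1 encodes the coactivator that LEF-1 and TCF-1 recruit, and it was the one member lower in both experiments. On Mu11K A, probe set m90364_s_at read 450.2 in transgenic and 897.1 in wild-type cells, 1.99-fold lower and just short of the 2-fold mark. On U74A, the probe set read 2531 against 2854, 1.13-fold lower. Of the probe sets on Mu11K A, 11.8% had a lower ratio, and on that array 11.7% of probe sets were 2-fold or more lower, so a ratio of this size was common there. Averaged over the experiments, the log2 ratio of Ctnnb1 was -0.58 ± 0.36 (limma SE, n = 2 experiments, interval -1.35 to 0.19), with a limma adjusted p of 0.807.

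The HMGB genes encode abundant chromatin proteins with paired HMG boxes that bend DNA. Hmgb1 is expressed in most tissues, Hmgb2 is highest in dividing and lymphoid cells, and Hmgb3 is known from progenitor cells. Processed copies of HMGB genes are frequent in mammalian genomes, and the s and f suffixes in Affymetrix probe set names mark probes shared between transcripts, so their readings may include RNA of copies. On Mu11K B, the Hmgb1 probe set z11997_s_at read 4824 in transgenic and 8874 in wild-type cells, 1.84-fold lower. The U74A probe set is annotated both to Hmgb1 and to Gm21596 and was left out of the test, and it read 5122 and 4501, 1.14-fold higher. For Hmgb2, Z46757_s_at on Mu11K B read 7529 against 10824, 1.44-fold lower, and the U74A probe set read 1112 against 874, 1.27-fold higher. Both genes thus pointed down in experiment 1 and up in experiment 2.

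Hmgb3 had 2 probe sets on Mu11K A that differed from each other. AA673176_rc_f_at read 1014 in transgenic and 1410 in wild-type cells, 1.39-fold lower, and aa200970_s_at read 1055 and 1025, 1.03-fold higher. On U74A, the probe set read 5789 against 4851, 1.19-fold higher. The mean log2 ratios were -0.09 ± 0.36 for Hmgb2 (interval -0.86 to 0.69, limma adjusted p 0.978) and 0.02 ± 0.34 for Hmgb3 (interval -0.72 to 0.76, limma adjusted p 0.991), with limma SEs over 2 experiments. The fold at the ends of the Hmgb3 interval was 0.606 and 1.69, and no value inside that range is excluded. Hmgb1 has no test, since its own probe set stands in 1 experiment.

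**Figure D3:**
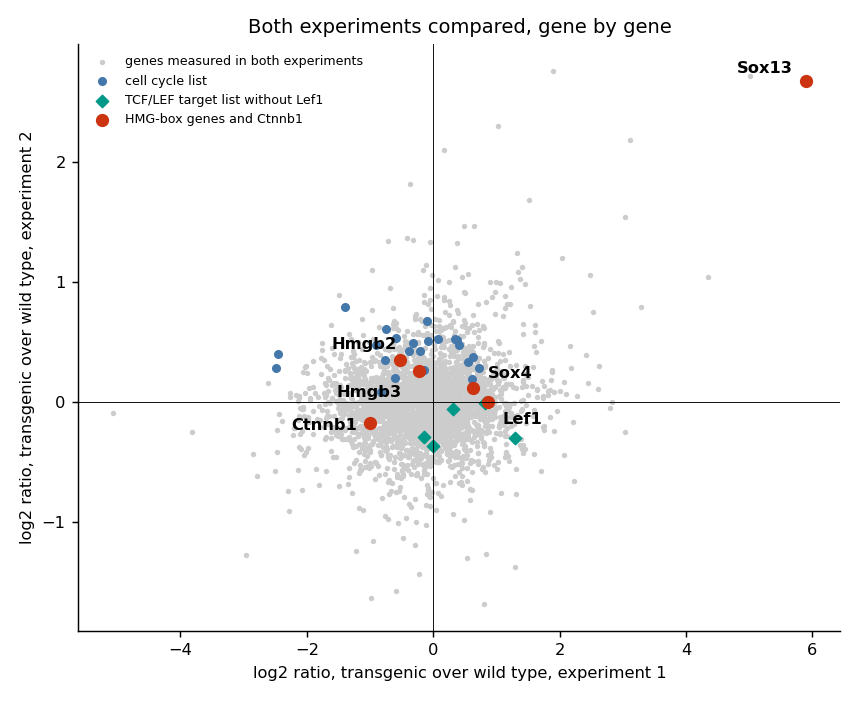
Log2 ratio of transgenic over wild type in experiment 1 (horizontal) and experiment 2 (vertical) for the 3237 genes measured in both, as grey points, with the HMG-box genes and Ctnnb1 in red and labelled, cell cycle genes in blue and TCF/LEF target genes as green diamonds. Sox13 lies at the upper right at 5.90 and 2.68, and Hmgb2 lies on the left above the line at -0.52 and 0.35.

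The promoters of Sox4, Hmgb1, Hmgb2 and Hmgb3 are shown because the 250 bases upstream of their annotated starts share repeated CCAAT boxes, the motif that the NF-Y factor binds. The sequences are from RefSeq on GRCm38.p6, written 5′ to 3′ on the gene's strand, with CCAAT and its complement ATTGG in capitals. The Sox4 window is chr13:28953700-28953949 on the minus strand, the Hmgb1 window chr5:149053058-149053307 on the minus strand, the Hmgb2 window chr8:57511593-57511842 on the plus strand and the Hmgb3 window chrX:71555667-71555916 on the plus strand. Each ends at the base before the outermost annotated start of its gene.
Sox4: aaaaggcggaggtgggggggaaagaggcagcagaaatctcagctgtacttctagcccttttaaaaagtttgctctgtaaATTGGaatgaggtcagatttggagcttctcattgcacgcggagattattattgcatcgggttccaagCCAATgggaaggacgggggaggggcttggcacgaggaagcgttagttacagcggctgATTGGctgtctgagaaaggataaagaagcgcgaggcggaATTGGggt
Hmgb1: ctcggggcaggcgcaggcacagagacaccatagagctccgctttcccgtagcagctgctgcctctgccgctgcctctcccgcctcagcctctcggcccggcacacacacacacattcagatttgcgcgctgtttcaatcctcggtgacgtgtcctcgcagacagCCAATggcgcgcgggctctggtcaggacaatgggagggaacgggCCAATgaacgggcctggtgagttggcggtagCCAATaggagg
Hmgb2: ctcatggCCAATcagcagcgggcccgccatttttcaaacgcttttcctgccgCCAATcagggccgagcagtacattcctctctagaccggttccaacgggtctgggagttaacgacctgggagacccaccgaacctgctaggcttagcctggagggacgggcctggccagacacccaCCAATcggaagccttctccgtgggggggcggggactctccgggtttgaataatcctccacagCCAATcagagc
Hmgb3: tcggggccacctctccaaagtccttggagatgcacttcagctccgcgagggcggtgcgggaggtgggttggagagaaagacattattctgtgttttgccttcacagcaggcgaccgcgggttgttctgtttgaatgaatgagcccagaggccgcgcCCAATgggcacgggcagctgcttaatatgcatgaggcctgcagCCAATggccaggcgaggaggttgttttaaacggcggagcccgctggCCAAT
CCAAT, searched on both strands, occurred 4 times in the Sox4 and Hmgb2 windows and 3 times in those of Hmgb1 and Hmgb3. Of 19827 such windows over all genes, 34.4% held at least 1 match, 2.78% at least 3 and 0.837% at least 4. The windows shown were picked for their counts, so these shares are no test of them. The match nearest the start ended 3 bases before it in Sox4, 6 in Hmgb1 and Hmgb2 and 0 in Hmgb3. The Ctnnb1 window held 2 and the Lef1 window 0, and Sox13 and Tcf7 had no window of this kind in the table. The TCF/LEF core, searched on both strands as CTTTG followed by a pair of letters that are each A or T, occurred in 16.2% of windows and in 1 of the 7 member windows. That was the Ssrp1 window, which held 1 match and 0 CCAAT, and the windows of Sox4, Lef1, Hmgb1, Hmgb2, Hmgb3 and Ctnnb1 held 0. ACAAT, also searched on both strands, occurred in 30.7% of windows, with 1 match in the Hmgb1 window and none in the other member windows. A match is a string of letters, and no binding was measured here.

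The remaining HMG-box genes on the arrays gave no call. Of 37 on the list, 22 were annotated, 19 of them in experiment 1 and 22 in experiment 2. Above the floor were 9 in experiment 1 and 11 in experiment 2. In experiment 1, 3 were higher and 6 lower, with a median log2 ratio of -0.66 beside -0.07 over all genes. That middle value is the ratio of Sry, a Y chromosome gene read in samples labelled female. No shift of the list is therefore read from it. The list's median was -0.30 with a floor of 200, -0.31 under median scaling and -0.32 under quantile normalization. In experiment 2, 6 were higher and 5 lower, with a median of 0.02 beside -0.03, which turned to -0.03 with a floor of 50. Of the 7 measured in both, 0 passed limma, 6 had opposite signs and 1, Tox4, was lower in both at -0.80 and -0.15. Pbrm1, a subunit of the PBAF remodeler, had log2 ratios of -1.46 (264.6 against 730.5) and 0.13. Wdhd1, a replication factor, was at -1.46 and 0.40, with its experiment 1 levels low, at 137 against 377.9. Cic, a repressor downstream of receptor tyrosine kinases, was at 465 in transgenic cells against a wild-type value below the floor in experiment 1, a log2 ratio of at least 2.22, and at -0.17 in experiment 2.

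Few Sox genes were measured. Of 18 other Sox genes including Sry, 12 were annotated, 11 of them in experiment 1 and 12 in experiment 2. Above the floor were 1 in experiment 1 and 3 in experiment 2. The one in experiment 1 was Sry, which lies on the Y chromosome, with 242.3 in transgenic and 383.9 in wild-type cells although every sample is labelled female. A reading of this size on Mu11K therefore does not by itself show that a gene is expressed. Sox5 and Sox6, the SoxD relatives of Sox13, lay below the floor in both genotypes and both experiments. Among the TCF/LEF factors, Tcf7l1 had log2 ratios of 1.02 (1938 against 954) and -0.50 (115.7 against 163.6), and Tcf7l2 was measured in experiment 2 at 0.23.

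The canonical Wnt and TCF/LEF pathway, counted from 82 listed genes of which 63 were annotated, also gave no call. Of these, 48 were annotated in experiment 1 and 63 in experiment 2. In experiment 1, 26 genes were measured, 16 higher and 10 lower, with a median log2 ratio of 0.10. In experiment 2, 36 were measured, 12 higher and 24 lower, with a median of -0.11. Over all genes 45.6% were higher in experiment 1 and 45.4% in experiment 2, so the share was above that of all genes in one experiment and below it in the other. The experiment 1 median was 0.38 under median scaling and 0.22 under quantile normalization. Of the 23 measured in both, 0 passed limma, 3 were higher in both (Btrc, Dvl1 and Csnk1d), 4 were lower in both (Tle4, Ctnnbip1, Lrp6 and Fbxw11) and 16 had opposite signs.

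By role, the start of the pathway was little measured. Of the Wnt ligands annotated, 3 of 13 lay above the floor in experiment 1 and 2 of 14 in experiment 2. Of the secreted antagonists, 0 of 3 did in experiment 1 and 0 of 7 in experiment 2. Of 7 Frizzled and Lrp receptors annotated in experiment 1, 2 were measured, both lower. In experiment 2, 5 of 10 annotated were measured, 4 of them lower. The coreceptor Lrp6 had log2 ratios of -1.19 (152.8 against 347.4) and -0.10, with a limma adjusted p of 0.803 over 2 experiments. Fzd4 was at -0.83 in experiment 2, from 107.3 against 191.1, close to the floor.

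The proteins that hold beta-catenin levels down were measured more fully. Of the destruction complex and its kinases and ligases, 8 of 9 genes annotated in experiment 1 were measured, 4 higher and 4 lower. In experiment 2, 11 of 11 were measured, 6 higher and 5 lower. Btrc, a ubiquitin ligase subunit that marks beta-catenin for degradation, had log2 ratios of 0.64 and 0.17, and Csnk1a1, the kinase that primes it, -0.93 and 0.10. Gsk3a read 710.6 in transgenic cells against a wild-type value below the floor in experiment 1, a log2 ratio of at least 2.83, and 14075 against 14101 in experiment 2, a ratio of -0.00. Apc, the scaffold of the complex, was measured in experiment 2 alone, at 0.44. Among the corepressors, 3 of 5 measured were higher in experiment 1 and 1 of 5 in experiment 2, with Tle3 at 1.15 and -0.35 and Tle4 at -0.56 and -0.32. Jup, plakoglobin, a relative of beta-catenin, stood at 0.32 and -0.94, the lowest of the list in experiment 2.

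The TCF/LEF target genes known in thymocytes or more widely gave no call, and the median of the list differed in sign between experiments. Of 16 listed, 12 were annotated, 10 of them in experiment 1 and 12 in experiment 2. In experiment 1, 4 of 6 measured were higher, with a median log2 ratio of 0.57, and in experiment 2 all 7 measured were lower, with a median of -0.27 and a range from -0.37 to -0.01. Lef1 and Bcl2l1 lay close to 0 there, and under median scaling 2 of the 7 were higher and the experiment 1 count was 6 of 6 higher. With a floor of 200 the medians were 0.30 and -0.04, and 4 targets were left in experiment 2, all lower. Over all genes, 45.6% were higher in experiment 1 and 45.4% in experiment 2. Of the 6 targets measured in both as reported, 0 passed limma. Lef1 is itself on this list, as is Cd4, with log2 ratios of -0.00 and -0.37. Myc read 244 against a wild-type value below the floor in experiment 1, a log2 ratio of at least 1.29, and 114.9 against 141.8 in experiment 2, at -0.30. Axin2, a feedback inhibitor that is often read as a mark of Wnt signaling, was measured in experiment 2 alone and lay near the floor, at 117.5 against 141.4. Bcl2l1, which encodes the survival protein Bcl-xL, stood at 0.82 and -0.01, Gata3 at 0.32 and -0.06, and Ccnd1 at -0.15 and -0.30.

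**Figure D4:**
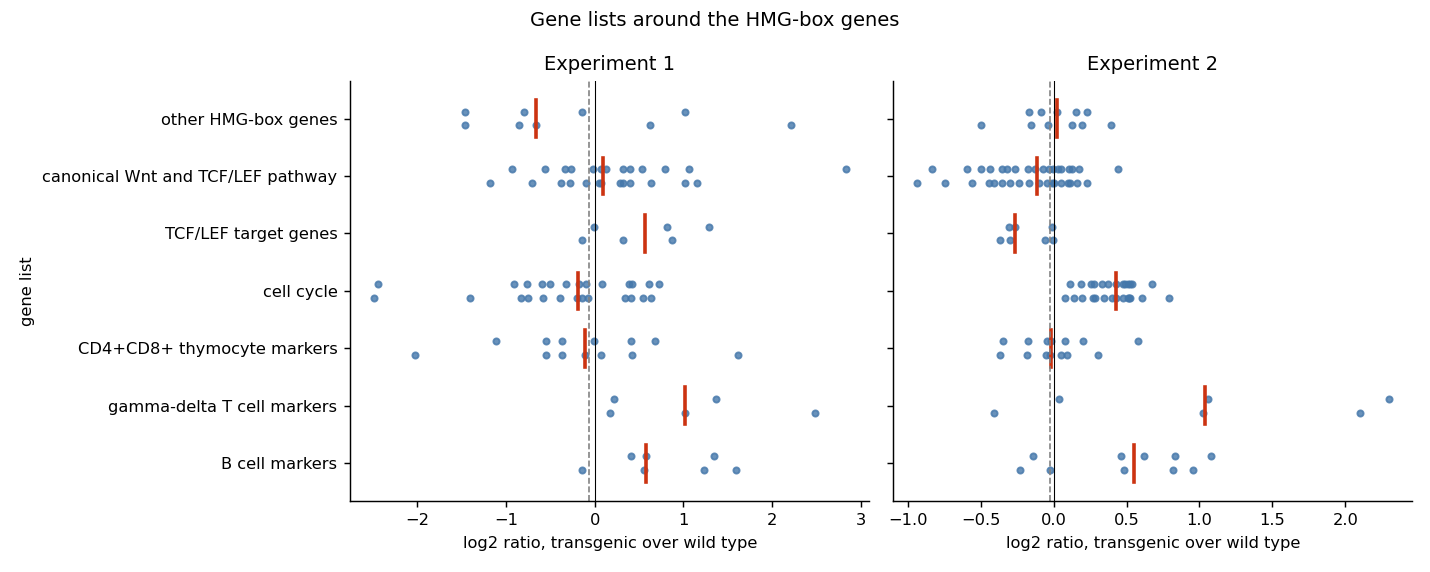
Log2 ratio (transgenic over wild type) of each measured gene as blue points in 7 gene lists, in experiment 1 (left) and experiment 2 (right), on horizontal axes of different range; the red bar is the list's median, the dashed line the median of all genes and the solid line 0. The cell cycle points all lie above 0 in experiment 2, with a median of 0.43, while their median in experiment 1 is -0.19.

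Cell cycle genes are given beside Hmgb2 and Hmgb3, because Hmgb2 is known to be higher in dividing cells. In experiment 2, all 27 measured cell cycle genes were higher in transgenic cells, with log2 ratios from 0.08 to 0.79 and a median of 0.43, and Hmgb2 stood at 0.35 and Hmgb3 at 0.26. In experiment 1, 9 of 26 were higher and 17 lower, with a median of -0.19, which turned to 0.07 with 15 of 26 higher under median scaling. There Hmgb2 stood at -0.52 and Hmgb3 at -0.22 as reported. Top2a, the topoisomerase of replicated chromosomes, had log2 ratios of -2.45 and 0.40, and Mki67 -2.49 and 0.28. The replication helicase genes Mcm7, at 0.64 and 0.37, and Mcm5, at 0.72 and 0.29, were higher in both. Of the 24 measured in both experiments, 0 passed limma, where 0.154% of all genes did. The summed level of the list on Mu11K A was 31711 in transgenic and 33477 in wild-type cells. On Mu11K B the sums were 20436 and 37353, and on U74A they were 106608 and 84604. Its part in the Hmgb2 and Hmgb3 ratios was not tested. The cells are bulk sorts, so fewer cells of a type and less RNA per cell cannot be told apart.

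Markers of other cells were counted in the same way. Over all genes, 45.6% were higher in experiment 1, 45.4% in experiment 2, and 0.154% of those tested passed limma. Of the gamma-delta T cell markers, 5 of 5 measured were higher in experiment 1 and 5 of 6 in experiment 2, with median log2 ratios of 1.02 and 1.04, and 0 passed limma. Gzma, a granzyme of cytotoxic cells, was at 2.49 and 1.06, and the gamma chain segment Trgv1 at 1.02 and at least 2.30. Trgv4, another such segment, stood at 0.17 and 2.10, and Blk at 1.37 and 1.02. The 1 lower in experiment 2 was Id3, at 0.22 and -0.41. Il7r, counted as higher in experiment 2, read 102.6 against a wild-type value below the floor. Cd44 lay below the floor in both genotypes and both experiments. The summed level of this list on Mu11K A was 3829 in transgenic and 2402 in wild-type cells. On Mu11K B the sums were 8604 and 1596, and on U74A they were 4636 and 2960. Gzma alone read 8604 and 1535 on Mu11K B, where the only other gene of the list was Cd44. Of the B cell markers, 6 of 7 were higher in experiment 1 and 7 of 10 in experiment 2, with medians of 0.58 and 0.55, and 0 of the 7 measured in both passed limma. The largest mean ratios were those of MHC class II genes, with H2-Aa at 1.34 and 1.08, its invariant chain Cd74 at 1.23 and 0.95, and H2-Ab1 at 1.59 and 0.46. The B cell marker Cd79a lay below the floor in both genotypes in experiment 1 and read 177.3 against 100.6 in experiment 2. Ms4a1, at -0.14, was the 1 B cell marker lower in experiment 1. The 3 lower in experiment 2 were Cd79b, at -0.23, Pax5, at -0.14, and Blnk, near the floor. Cd22 lay below the floor in both genotypes and both experiments. The summed B cell level, transgenic before wild type, was 8672 and 5397 for Mu11K A, 25464 and 15284 for Mu11K B, and 19432 and 16927 for U74A. Much of this was Ighm, with a probe set at 13180 and 9859 on Mu11K B and another at 10560 and 10340 on U74A.

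Globin RNA rose in the transgenic samples, with Hba-a1 at log2 ratios of 1.90 and 2.76 (limma adjusted p 0.0154) and Hbb-b2 at 3.04 and at least 1.54 (limma adjusted p 0.0399), both over 2 experiments. The experiment 1 value of Hba-a1 averages 2 probe sets that disagreed, at -0.03 and 3.83. Both calls were lost with a floor of 50, at limma adjusted p of 0.152 and 0.0986, with no filter on low values and in the unpaired fit, and that of Hbb-b2 also with a floor of 200, at 0.355, and with the brightest probe set, at 0.194. Of the erythroid markers, 4 of 6 measured were higher in experiment 1 and 2 of 5 in experiment 2. Of the 5 measured in both, 2 were higher in both, the globins, and 2 were lower in both, Car2 and Gata1. Car2 was at least 1.98-fold lower in experiment 1 and at least 3.11-fold lower in experiment 2, with a limma adjusted p of 0.431. Alas2, Epor and Epb42 lay below the floor in both genotypes and both experiments. The erythroid sums, transgenic first, were 769.4 and 888.1 for Mu11K A, 3347 and 941.3 for Mu11K B, and 2454 and 1061 for U74A. On Mu11K B, the Hba-a1 probe set v00714_f_at alone read 1862 and 131. Of the myeloid markers, 3 of 8 were higher in experiment 1 and 9 of 11 in experiment 2, with summed levels of 2780 and 2861 for Mu11K A, 1369 and 1441 for Mu11K B, and 2922 and 1799 for U74A. Lyz2, the lysozyme of myeloid cells, was at -0.32 and at least 1.35. The largest mean ratios of the myeloid list were those of Ctss, at 1.32 and 1.24, and Mpeg1, at 0.51 and 0.66. Of the 7 myeloid markers measured in both experiments, these 2 were higher in both, 1 was lower in both and 4 had opposite signs, and 0 passed limma. Under median scaling and under quantile normalization, 5 of 8 myeloid markers were higher in experiment 1. Of the stromal and epithelial markers, 4 of 5 measured were lower in experiment 1 and 5 of 5 in experiment 2. Median scaling gave 4 of 7 and 3 of 5 lower, and quantile normalization 3 of 7 and 4 of 5, so no direction is read from these counts. On U74A 10 of the 15 stromal and epithelial markers annotated lay below the floor in both genotypes. The part of these cells in the ratios of the HMG-box genes was not tested.

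The genes whose ratios lay closest to those of Sox13, by Euclidean distance over the log2 ratios of the 2 experiments, were Dtx1, Pdlim4 and Plac8. In experiment 1 the wild-type values of Sox13, Dtx1 and Pdlim4 were all below the floor, so their ratios there are bounds, the distances have no exact size and no order is read from them. With a floor of 200, Gzma stood in the place of Pdlim4. Dtx1, a regulator and target of Notch signaling, read 3221 in transgenic cells against 65.6, below the floor, in experiment 1 and 1388 against 210.7 in experiment 2, and it rose with log2 ratios of at least 5.01 and of 2.72 and a limma adjusted p of 0.00428 over 2 experiments. Plac8 read 1370 against 158.8 and 2483 against 548.5 and rose with log2 ratios of 3.11 and 2.18 and a limma adjusted p of 0.00605 over 2 experiments. Like that of Sox13, both calls were lost with a floor of 50 (limma adjusted p 0.0986 for each) and with the brightest probe set (0.0501 for each). Both were also lost with no filter on low values (0.846 for each) and in the unpaired fit (0.999 for each). With probe sets above the floor on both arrays, Plac8 kept its call (limma adjusted p 0.00769), and Dtx1, like Sox13, was not tested. Pdlim4, a LIM domain protein of the actin cytoskeleton, stood at log2 ratios of at least 4.34 and 1.04, and its limma adjusted p over 2 experiments was 0.156. In each experiment these ratios come from the same pair of samples as that of Sox13, and likeness over 2 points is a description.

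**Figure D5:**
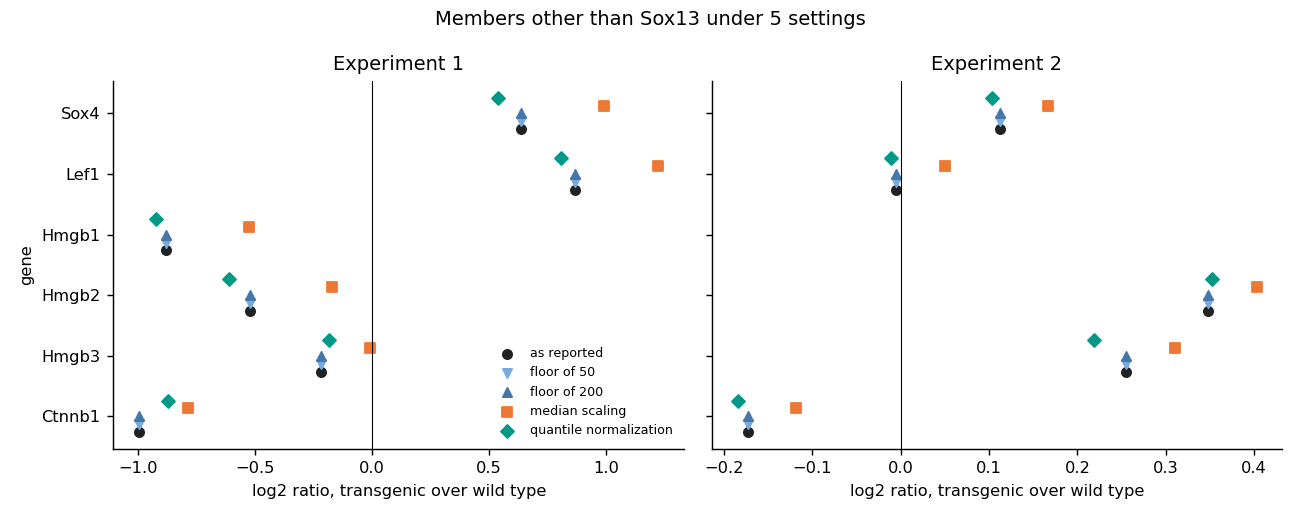
Log2 ratio of transgenic over wild type in experiment 1 (left) and experiment 2 (right) for the members other than Sox13, as reported and under 4 other settings shown by colour and shape, on horizontal axes of different range. In experiment 1, median scaling moves every member up, Lef1 from 0.87 to 1.22, and no sign changes, while in experiment 2 Lef1 moves across 0.

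Scaling mattered most in experiment 1. With each array scaled to its median in place of the trimmed mean, the median log2 ratio of all genes moved from -0.07 to 0.16 in experiment 1, so each member's ratio is best read against that shift. Under median scaling the Mu11K B ratios of Sox4 (w84196_s_at) and Lef1 passed 2-fold, at 1.05 and 1.22, and the count of member probe sets 2-fold or more higher went from 2 to 4. The share of all probe sets at 2-fold or more under that scaling is not given here, so nothing is read from the count. With the median of all genes taken off, the experiment 1 gene value of Sox4 was 0.83 against 0.70 as reported, and that of Lef1 1.07 against 0.93. In experiment 1 Sox4 and Lef1 stayed above 0 and Hmgb1, Hmgb2, Hmgb3 and Ctnnb1 below 0 under all of the scalings and floors shown.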

How the data were processed

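The authors deposited 1 intensity per probe set on a linear scale for 6 Affymetrix arrays. The series text names Microarray Analysis Software in its v4 and v5 releases, and MAS5 stands in the submitters' processing notes. The release behind each array and the target it was scaled to are not stated in the labels. Negative intensities made up 17.4% to 29.2% of Mu11K values and 0% of U74A values. Control probe sets were left out, arrays were brought to a common 2% trimmed mean of 500, and values under 100 were set to 100 before log2. Gene names are those of the platform annotation, checked against the RefSeq gene table of GRCm38.p6, and probe sets with several symbols were left out of gene values. A gene's log2 ratio in an experiment is the mean over its probe sets that passed the floor in either genotype. The test was limma (version 3.58.1, R 4.3.3) on the 2 experiments' ratios, a two-sided test of their mean against 0, with Benjamini-Hochberg adjustment over 3237 genes at 0.05, with 12.1 prior degrees of freedom. Mu11K A and B counted as 1 sample. The number of arrays limits the precision.

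The members and lists were chosen with earlier results of these data known. Besides all members, the text names, per pathway list and direction, up to 5 genes with the same sign in both experiments and the 2 with the largest ratio in each. From the marker and cell cycle lists it names genes among those with the largest absolute mean ratio, with Cd4, Cd8a, Cd79a, Lyz2 and Hba-a1 besides. The same rule also picked Cd1d1, Satb1, H2-Eb1, Cd68, Pecam1 and Col1a1, which are not described. The text names the 3 nearest to Sox13. Axin2, Bcl2l1, Gata3, Sry, Sox5 and Sox6 fall outside the rule and were named after their values were seen. So were Id3, Il7r, Cd44, Ms4a1, Cd79b, Pax5, Blnk, Cd22, Ighm, Alas2, Epor and Epb42.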

Additional observations from a re-analysis of the deposited data

Results flagged for a closer look

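Lef1, Hmgb2 and Hmgb3 had opposite signs in the 2 experiments, with 1 pair of samples in each, and the difference between the experiments was not tested. For Lef1 the log2 ratio of experiment 1 minus that of experiment 2 was 0.87, from 0.87 and -0.01. For Hmgb2 it was -0.87, from -0.52 and 0.35, and for Hmgb3 -0.47, from -0.22 and 0.26. Of all 3237 genes measured in both experiments, 45.7% had opposite signs. The experiments differ in array type, so array type and experiment cannot be told apart.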

How the results depend on the processing

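The number of genes called over both experiments was 5 as reported. It was 0 with a floor of 50, 0 with no filter on low values, 2 with probe sets above the floor on both arrays, 29 with median scaling, 15 with quantile normalization, 1 when genes were represented by their brightest probe set and 0 in the unpaired fit with no replicate block, which puts array type into the error. The number of member genes called, 1 as reported, was 0 with a floor of 50, no filter, probe sets above the floor on both arrays (where Sox13 was not tested), the brightest probe set and no replicate block. Sox13 kept its direction in every setting that tested it. Its mean log2 ratio was 4.79 with a floor of 50 (limma adjusted p 0.152), and 4.29 with no filter (0.846), the brightest probe set (0.0722) and no replicate block (0.999), and its adjusted p ranged from 7.66e-24 to 0.999 over the alternatives. Without one experiment its value was 2.68 or 5.90, with no test. No other member passed under any alternative, with adjusted p from 0.807 upward. The mean of Hmgb2 turned to 0.12 with median scaling and that of Hmgb3 to -0.11 with the brightest probe set. Member probe sets 2-fold or more higher numbered 4 with median scaling against 2, with no share of all probe sets under that scaling to set beside them. Counting probe sets of several genes for Hmgb1, chosen after seeing the data, left the number of called genes at 5. The cause of these moves was not tested. The 2 pairs, 1 per experiment, come from the array types, since the labels give no replicate numbers that pair samples. The limits are 1 sample per genotype and array type, pooled mice, and no detection calls.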
